A study of Mus musculus with 2 samples.

Results

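The region described here is spot cluster 2 of a WT mouse tongue section, labelled a basal-rich region and chosen as the spots that the authors had placed in their cluster 2. It was described over all 865 genes of the authors' deposited cluster table of that section, out of 879 genes listed for the series. It held 1354340 of the 2283314 unique molecular identifiers (UMIs, each standing for 1 captured transcript) in the 3 clusters of the section, which is 59.3%. Cluster 1 held 856199 UMIs (37.5%) and cluster 3 held 72775 (3.19%).

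Transcripts had been captured on barcoded spots under frozen tongue sections from mice given 4NQO, a DNA-damaging carcinogen used to induce oral squamous lesions. The WT section came from a mouse with the genotype Krt14-Cre(-); LSL-H3K36M, which carries the silent transgene for a mutant histone H3 but no Cre to switch it on. The H3K36M section came from a mouse with the genotype Krt14-Cre(+); LSL-H3K36M, in which Cre is made in cells that use the Krt14 promoter. Both mice had received 4NQO, there was 1 section per genotype, and the sources used here give no age, dose or time. The WT section had 364 spots under tissue and a median of 4899 UMIs per spot, against 252 spots and 763.5 UMIs in the H3K36M section.

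The epithelium of the tongue is stratified. Keratinocytes divide in the basal layer, which is anchored to the basement membrane by hemidesmosomes and expresses the keratin pair Krt5 and Krt14, Krt15 and the transcription factor p63, encoded by Trp63. As cells move up they switch to Krt13 and Krt4, and at the surface they build a cornified envelope of cross-linked proteins such as loricrin; the filiform papillae of the tongue also make hair-type keratins. A spot is a small region that can hold several cells of different types, so each value below is that of a mixture of layers and neighbouring tissue.

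Of the 5 markers of the label, Mir205hg is the host transcript of miR-205, a microRNA of stratified epithelia. The sequences of the precursor and of both mature arms are shown because the host transcript was among the genes highest in cluster 2 relative to both other clusters. Capitals mark the seed, bases 2 to 8, in the mature arms, and both arms in the hairpin; sequences and positions are RefSeq's on GRCm38.p6, minus strand.
mmu-miR-205-5p: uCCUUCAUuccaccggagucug
mmu-miR-205-3p: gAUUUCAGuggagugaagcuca
miR-205 hairpin: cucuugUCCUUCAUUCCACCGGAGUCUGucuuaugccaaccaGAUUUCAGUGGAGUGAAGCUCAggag
The hairpin lies at chr1:193507463-193507530, inside the annotated host gene at chr1:193507238-193510174, a long non-coding RNA gene. The UMIs counted the polyadenylated host transcript and not the mature microRNA, whose level was not measured.

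Averages are given as UMIs per spot of median depth, the unit to which the deposited averages could be traced. They were not divided by transcript length. Parentheses hold exact 95% intervals, which cover counting error only: they say nothing of the spread between spots or animals, and the sources used here do not state how many spots a cluster had. Spots had been clustered on these very counts, so a ratio between clusters describes them and no test was made of it. A gene was listed only where its average reached 1 in some cluster. In cluster 2, 629 genes had an average of at least 1 and 236 were listed through another cluster alone; for those, a lower level in cluster 2 was fixed by the listing. The reverse held for 72 genes that reached 1 in cluster 2 alone.

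The 5 markers come with the label of the region, so their levels describe it and are no independent support for that label. They had higher averages in cluster 2 than in cluster 1. Of the 5, 4 were also above cluster 3 beyond counting error: Krt15, Krt5, Mir205hg and Ftl1, Krt5 only just. Krt15, a keratin of basal cells (chr11:100131758-100135928, GRCm38, minus strand), averaged 4.42 (4.17–4.68) in cluster 2, 1.27 (1.10–1.45) in cluster 1 and 2.28 (1.57–3.20) in cluster 3. The ratio of cluster 2 was 3.49 to cluster 1 and 1.94 to cluster 3. Mir205hg averaged 1.15 (1.03–1.29) in cluster 2, 0.282 (0.208–0.374) in cluster 1 and 0.345 (0.112–0.806) in cluster 3, on 311, 48 and 5 UMIs. Its ratio was 4.10 to cluster 1 and 3.34 to cluster 3, and the second rests on those 5 UMIs. Mir205hg reached the listing value of 1 in cluster 2 alone, so that it was highest there was fixed by the listing.

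Ftl1, the light chain of the iron store ferritin (chr7:45457944-45459884, minus strand), averaged 5.43 (5.15–5.71) in cluster 2, 1.36 (1.19–1.54) in cluster 1 and 1.8 (1.17–2.63) in cluster 3. It is expressed in most cell types and is not a basal-layer marker. The ratio of cluster 2 was 4.00 to cluster 1 and 3.02 to cluster 3. Krt5 (chr15:101707070-101712898, minus strand) averaged 16.5 (16–17.0) in cluster 2, 6.69 (6.31–7.09) in cluster 1 and 14.3 (12.4–16.4) in cluster 3. Cluster 2 thus stood 2.46-fold above cluster 1 and 1.15-fold above cluster 3 in Krt5, with the interval of the log2 ratio to cluster 3 running from 0.0019 to 0.41. When totals were taken without cornified, hair-type keratin, keratin-associated and alarmin genes, 2 of the 3 basal keratins, Krt15 and Krt14, had an interval above cluster 3, and Krt5 no longer did. Trp63 (chr16:25683763-25892102, plus strand) averaged 1.04 (0.918–1.16) in cluster 2, 0.511 (0.409–0.630) in cluster 1 and 1.04 (0.580–1.71) in cluster 3. Clusters 2 and 3 did not differ in Trp63 beyond counting error, and cluster 3 rested on 15 UMIs. In such mixtures, fewer cells of a type and less RNA per cell cannot be told apart. Basal markers separated cluster 2 from cluster 1 more than from cluster 3.

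**Figure D1:**
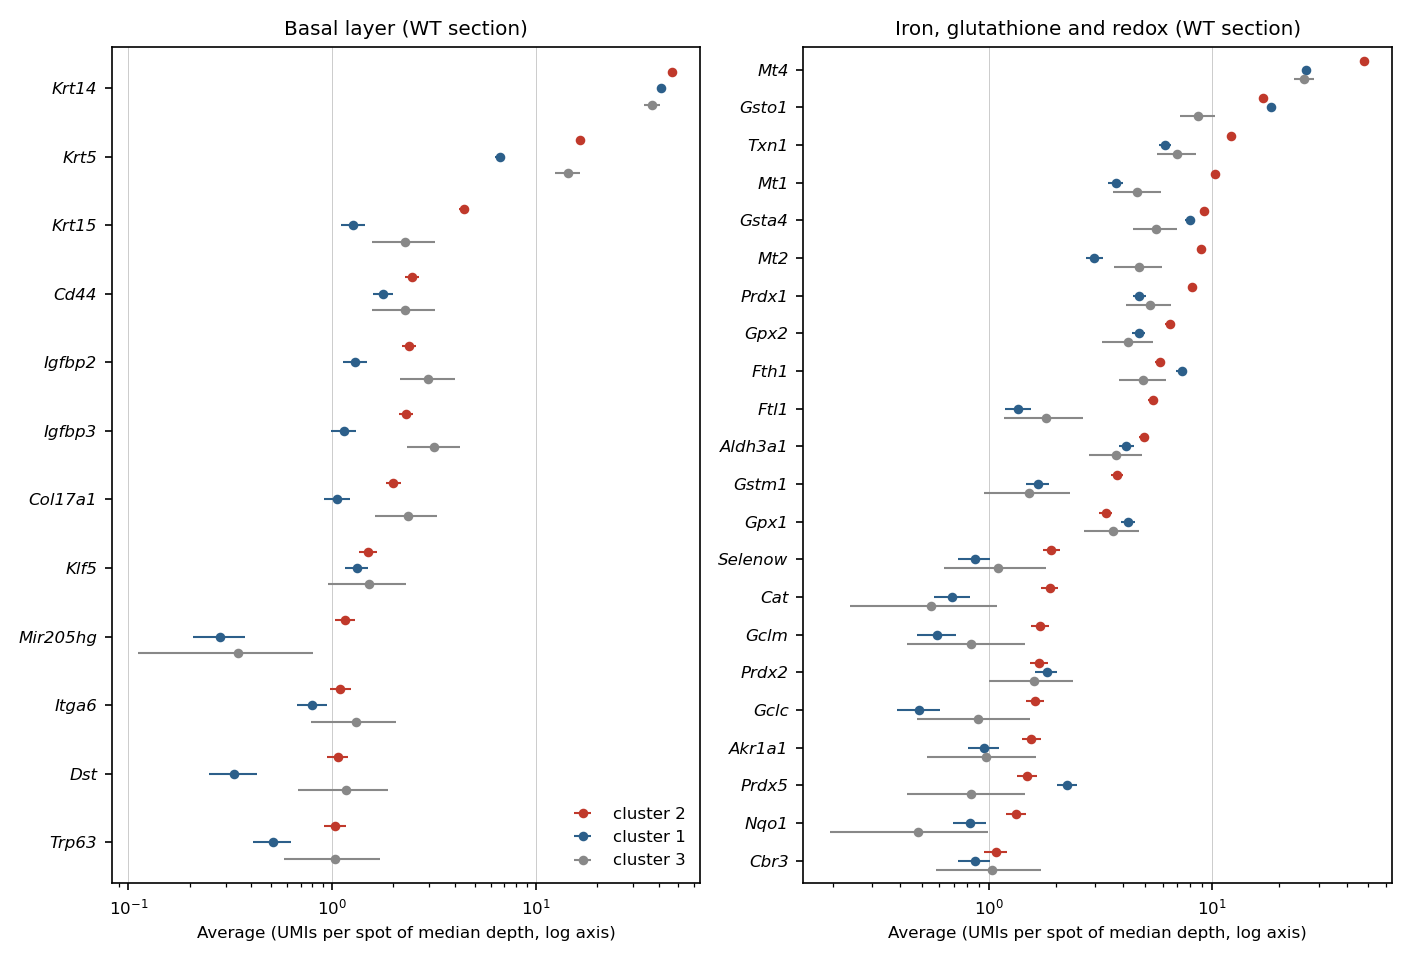
Averages (UMIs per spot of median depth, log axis) of the 12 basal-layer genes that reached 1 in cluster 2 (left) and the 22 listed iron, glutathione and redox genes (right) in WT cluster 2 (red), cluster 1 (blue) and cluster 3 (grey); bars are exact 95% intervals for counting error. Krt15 and Mir205hg stand highest in cluster 2, and Dst and Trp63 are near-equal in clusters 2 and 3.

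The most abundant transcripts of cluster 2 were those of suprabasal and activated keratinocytes, not of the basal layer. Krt13, the main keratin of suprabasal tongue epithelium, ranked 1 with 136 UMIs per spot of median depth (134–137) in cluster 2, 204 (202–206) in cluster 1 and 179 (172–186) in cluster 3. The alarmin subunit S100a8 ranked 2, at 77.4 in cluster 2, 101 in cluster 1 and 49.9 in cluster 3. Fabp5, a fatty acid carrier of keratinocytes, ranked 3 at 75.6 (74.6–76.7) in cluster 2, against 47.3 (46.3–48.4) in cluster 1 and 40.7 (37.5–44.1) in cluster 3. It was followed by Krt6a at 68.9, Krt4 at 60.1, Krt6b at 54.6, Krtdap at 50.3 and Krt16 at 50.1 in cluster 2. Krt6a, Krt6b and Krt16 are the keratins that epithelia make in wounds and in hyperproliferation. The highest keratin of the basal layer, Krt14 (chr11:100203162-100207548, minus strand), ranked 10 and Krt5 ranked 29.

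The 25 most abundant genes took 20.1% of the UMIs of cluster 2, against 25.5% in cluster 1 and 20.6% in cluster 3, so the transcripts of cluster 2 were less concentrated in a few genes than those of cluster 1. Of these 25 genes, 17 were also among the 25 of cluster 1 and 19 among the 25 of cluster 3. The 8 that were among the top 25 in cluster 2 but not in cluster 1 were 5 ribosomal protein genes (Rplp1, Rpl41, Rps12, Rps20 and Rpl13), the elongation factor Eef1a1, the galectin Lgals7 and the mitochondrial ATP synthase gene mt-Atp6. In their place cluster 1 had genes of the cornified layer, such as Rptn, Cnfn, Crct1 and Lce3c.

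**Figure D2:**
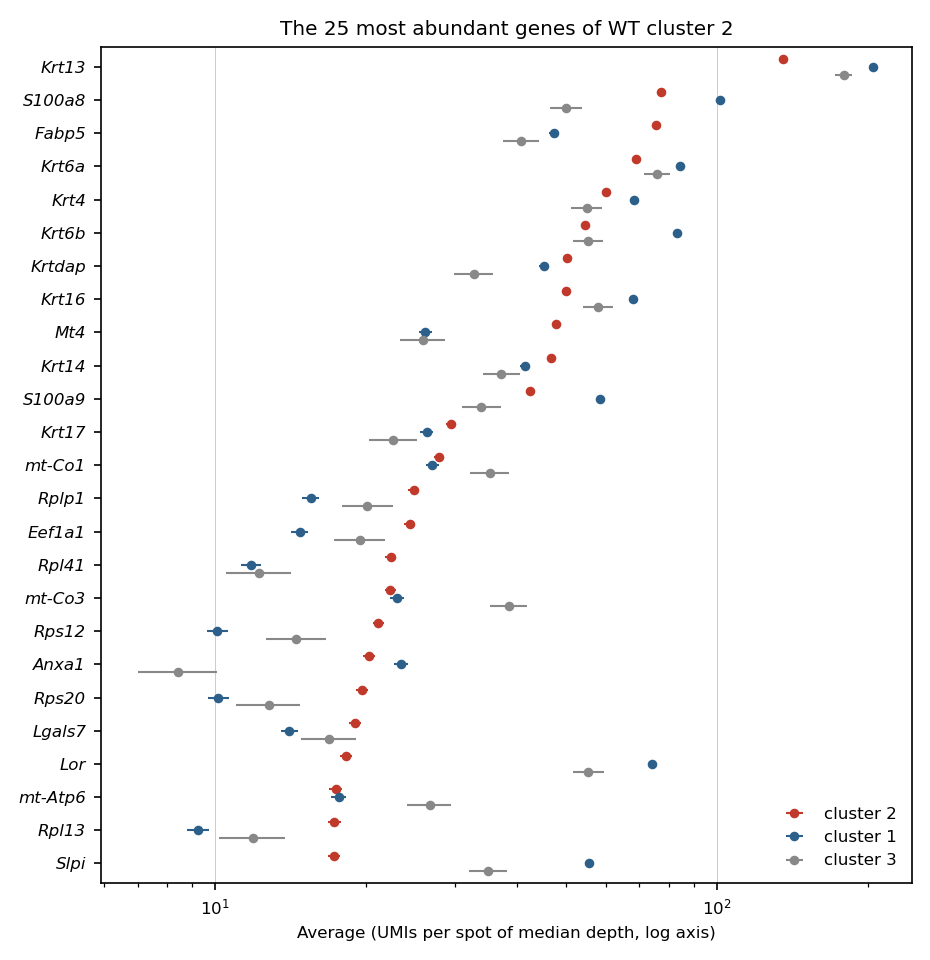
Averages (UMIs per spot of median depth, log axis) of the 25 most abundant genes of WT cluster 2, in cluster 2 (red), cluster 1 (blue) and cluster 3 (grey), with exact 95% intervals for counting error. Krt13 leads at 136, Fabp5 and Mt4 are highest in cluster 2, and Lor and Slpi are the 2 genes furthest below cluster 1.

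Set against cluster 1, cluster 2 was at least 2-fold higher in 73 genes, 8.44% of the 865, and at least 2-fold lower in 183 genes, 21.2%. It was above cluster 1 to any extent in 494 genes, 57.1%. Against cluster 3 it was at least 2-fold higher in 43 genes (4.97%) and lower in 158 genes (18.3%), and above it to any extent in 422 genes (48.8%). Of the 43 genes, 24 rested on fewer than 10 UMIs in cluster 3. Most genes, 558, were within 2-fold of both other clusters. The median log2 ratio of all genes was 0.19 to cluster 1 and -0.02 to cluster 3. Ratios to cluster 1 are best read against that 0.19: after division by the median ratio, 33 genes were at least 2-fold higher and 207 lower, in place of 73 and 183.

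The 2-fold line fell in the midst of a dense range. Rpl12 at 2.01-fold, Igfbp3 at 2.01-fold and Cox5b at 2.02-fold were just inside it, and Slc25a5, Ap2m1 and Rpl35a, each at 1.99-fold, were just outside. Of the 73 genes, 34 had an average of at least 1 in clusters 2 and 1 alike and 39 were under 1 in cluster 1. Among the 73 were 19 that reached 1 in cluster 2 alone. Of the 183 genes at least 2-fold lower than in cluster 1, 127 averaged under 1 in cluster 2 and so were listed through another cluster, and 56 had an average of at least 1 there. Of the 158 genes at least 2-fold lower than in cluster 3, 117 averaged under 1 in cluster 2.

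**Figure D3:**
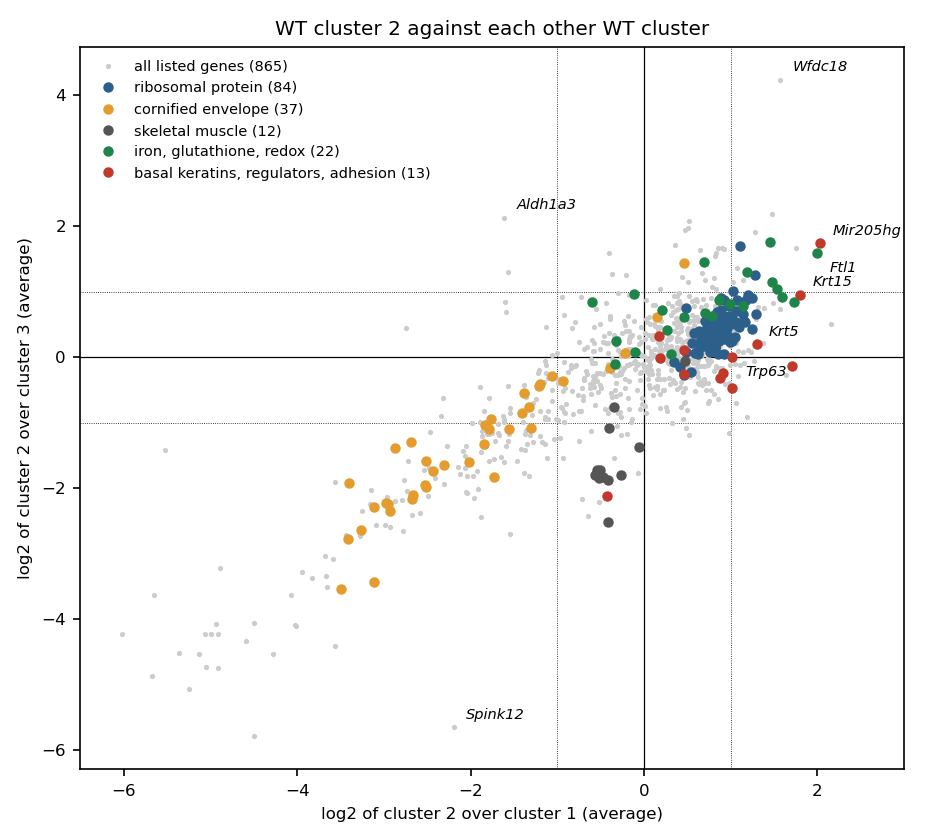
Each point is 1 of the 865 listed genes, placed by its log2 ratio of WT cluster 2 to cluster 1 (x axis) and to cluster 3 (y axis); dotted lines mark 2-fold and colours mark gene lists. Ribosomal protein genes lie right of the vertical line at 0, cornified envelope genes mostly at the lower left, muscle genes below the horizontal line at 0, and most basal genes to the right at a height near 0.

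Genes of basal identity and adhesion were mostly higher in cluster 2 than in cluster 1; the basal keratins were also higher than in cluster 3, and most regulators and adhesion genes were not. All 3 basal keratins were above cluster 1, with a median log2 ratio of 1.30, and all 3 were above cluster 3, with a median of 0.33. Krt14 itself differed little, at 46.7 (45.9–47.5) in cluster 2, 41.4 (40.4–42.3) in cluster 1 and 37.2 (34.1–40.4) in cluster 3, and its log2 ratio of 0.17 to cluster 1 was below the median of all genes. Together these keratins took 1.34% of UMIs in cluster 2, 0.981% in cluster 1 and 1.07% in cluster 3. Of 33 genes of basal regulation and adhesion, 10 were listed. Of these 10, 9 were above cluster 1 (4 by 2-fold or more), with a median log2 ratio of 0.89, but only 2, Mir205hg and Cd44, were above cluster 3, with a median of -0.18, and for Mir205hg that was fixed by the listing. The integrin genes Itgb4 and Itgb1 and the laminin genes Lama3 and Lamb3 were among the 23 not listed.

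Within this group the hemidesmosome genes followed the same split. Dst, whose epithelial product links keratin to the hemidesmosome, averaged 1.07 (0.949–1.20) in cluster 2, 0.329 (0.248–0.427) in cluster 1 and 1.17 (0.684–1.88) in cluster 3. The hemidesmosomal collagen Col17a1 averaged 2.0 (1.84–2.18) in cluster 2, 1.06 (0.914–1.23) in cluster 1 and 2.35 (1.63–3.28) in cluster 3. The integrin gene Itga6 averaged 1.10 (0.977–1.23) in cluster 2, 0.798 (0.670–0.945) in cluster 1 and 1.31 (0.790–2.05) in cluster 3. For all 3 genes clusters 2 and 3 overlapped in their intervals, and cluster 1 was below cluster 2.

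Of the insulin-like growth factor binding proteins, Igfbp3 averaged 2.31 in cluster 2, 1.14 in cluster 1 and 3.18 in cluster 3. Igfbp2 averaged 2.38 in cluster 2, 1.30 in cluster 1 and 2.97 in cluster 3. Igfbp7 averaged 0.857 in cluster 2, 0.276 in cluster 1 and 1.04 in cluster 3. All 3 were higher in cluster 2 than in cluster 1, and none was higher than in cluster 3. Igfbp7 reached the listing value of 1 in cluster 3 alone, so that it was highest there was fixed by the listing.

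Genes that handle iron, metals, glutathione and oxidants were mostly higher in cluster 2 than in both other clusters. Of 48 genes in this list, 22 were listed; 17 of these were above cluster 1 and 21 above cluster 3, with median log2 ratios of 0.75 and 0.82. After division by the median ratio the counts were again 17 and 21. The shares over all 865 genes were 57.1% above cluster 1 and 48.8% above cluster 3. At the 2-fold line, 8 were higher than cluster 1 and 6 higher than cluster 3, and none was lower by that much. These counts include genes listed through cluster 2 alone, such as Gclc, Gclm and Cat, whose highest level there was fixed by the listing. The 22 genes took 3.13% of UMIs in cluster 2, 2.04% in cluster 1 and 1.79% in cluster 3.

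Among them were the metallothioneins, small proteins that bind zinc and copper. Mt4, the form of stratified epithelia, gave 12848 of the 42418 UMIs of this list in cluster 2. It averaged 47.7 (46.9–48.5) in cluster 2, 26.2 (25.5–27.0) in cluster 1 and 25.9 (23.3–28.7) in cluster 3. Mt1 (chr8:94179082-94180327, plus strand) averaged 10.3 (9.94–10.7) in cluster 2, 3.70 (3.42–4.00) in cluster 1 and 4.63 (3.59–5.88) in cluster 3. Mt2, its neighbour at chr8:94172664-94173568, averaged 8.93 (8.57–9.29) in cluster 2, 2.97 (2.71–3.24) in cluster 1 and 4.70 (3.65–5.95) in cluster 3. In all 3 genes cluster 2 lay above both other clusters with no overlap of the intervals.

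Both subunits of glutamate-cysteine ligase, the rate-limiting enzyme of glutathione synthesis, were higher as well. The catalytic subunit Gclc averaged 1.61 (1.47–1.77) in cluster 2, 0.487 (0.388–0.604) in cluster 1 and 0.898 (0.478–1.54) in cluster 3, on 435, 83 and 13 UMIs. The modifier subunit Gclm averaged 1.70 (1.55–1.87) in cluster 2, 0.587 (0.478–0.714) in cluster 1 and 0.829 (0.428–1.45) in cluster 3. Both were about 3-fold above cluster 1, at ratios of 3.31 and 2.90. Catalase, Cat, which breaks down hydrogen peroxide, averaged 1.88 (1.72–2.05) in cluster 2, 0.687 (0.568–0.823) in cluster 1 and 0.553 (0.239–1.09) in cluster 3. Thioredoxin, Txn1, averaged 12.2 (11.8–12.6) in cluster 2, 6.15 (5.79–6.54) in cluster 1 and 6.98 (5.68–8.48) in cluster 3. The glutathione transferase gene Gstm1, named after its values were seen, averaged 3.77 in cluster 2, 1.66 in cluster 1 and 1.52 in cluster 3.

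The redox group was not uniform. The ferritin heavy chain Fth1, also named after its values were seen, averaged 5.84 (5.56–6.14) in cluster 2, 7.30 (6.90–7.72) in cluster 1 and 4.90 (3.83–6.19) in cluster 3. The 2 ferritin chains thus differed in opposite directions between clusters 2 and 1, at log2 ratios of 2.0 (1.8–2.21) for Ftl1 and -0.32 (-0.43 to -0.21) for Fth1. Gsto1, a glutathione transferase of the omega class, was the most abundant of the non-metallothionein members. It averaged 16.9 (16.4–17.4) in cluster 2, 18.3 (17.7–19.0) in cluster 1 and 8.63 (7.19–10.3) in cluster 3. Gsto1 was therefore near-equal in clusters 2 and 1 and 1.95-fold above cluster 3.

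Ribosomal protein genes were higher in cluster 2 than in cluster 1 throughout, and mostly higher than in cluster 3. All 84 listed genes of this family, with Rack1 counted among them, were above cluster 1, with a median log2 ratio of 0.85, and 20 by 2-fold or more. They were above cluster 3 in 80 cases, with a median of 0.40, or in 77 cases with totals taken without cornified, hair-type keratin, keratin-associated and alarmin genes. Beyond counting error, 58 of the 84 were above cluster 3, or 51 with those totals. Their share of UMIs was 16.8% in cluster 2, 9.31% in cluster 1 and 12.6% in cluster 3. Rps15a averaged 15.4 (14.9–15.9) in cluster 2, 6.51 (6.13–6.91) in cluster 1 and 8.22 (6.81–9.84) in cluster 3. Rplp1, the most abundant of the family in cluster 2, averaged 24.8 in cluster 2, 15.5 in cluster 1 and 20.1 in cluster 3. Ribosomal protein genes have many near-identical pseudogenes, and single values of theirs, like those of Krt6a and Krt6b, of Mt1 and Mt2 and of Ftl1, depend on how reads were shared out.

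Other genes of ribosome making and translation were mostly higher than in cluster 1 as well. Gas5, a host gene of small nucleolar RNAs whose own transcript is degraded when translated, averaged 2.64 (2.45–2.84) in cluster 2, 0.787 (0.659–0.932) in cluster 1 and 0.829 (0.428–1.45) in cluster 3. It was above both other clusters by more than 3-fold, at ratios of 3.36 and 3.19. Gas5 reached the listing value of 1 in cluster 2 alone, so that it was highest there was fixed by the listing. Of 25 listed translation factors, 22 were above cluster 1, with a median log2 ratio of 0.59, and 16 above cluster 3, with a median of 0.11. The shares over all 865 genes were 57.1% and 48.8%. Beyond counting error, 5 of the 25 were above cluster 3. Eef1a1, the elongation factor that brings aminoacyl-tRNA to the ribosome, averaged 24.4 in cluster 2, 14.7 in cluster 1 and 19.4 in cluster 3. Snrpg, a core protein of spliceosomal particles, averaged 2.20 (2.03–2.39) in cluster 2, 0.787 (0.659–0.932) in cluster 1 and 1.24 (0.737–1.97) in cluster 3.

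Energy genes differed by their genome of origin. Of 51 listed nuclear-encoded respiratory chain genes, 50 were above cluster 1, with a median log2 ratio of 0.57, or 48 after division by the median ratio, and 25 were above cluster 3. The count against cluster 3 was near the share of all 865 genes, 48.8%. Of the 9 listed mitochondrially encoded genes, 2 were above cluster 1 (none after division by the median ratio) and none above cluster 3. Their share of UMIs was 1.93% in cluster 2, 2.03% in cluster 1 and 3.19% in cluster 3, and 3 of them were at least 2-fold lower than in cluster 3. The complex I gene mt-Nd4 averaged 3.98 (3.74–4.22) in cluster 2, 4.57 (4.25–4.90) in cluster 1 and 8.91 (7.44–10.6) in cluster 3.

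Of 10 listed glycolysis genes, 9 were above cluster 1 and 9 above cluster 3, with median log2 ratios of 0.53 and 0.37. After division by the median ratio, 8 were above cluster 1. Beyond counting error, 5 of the 10 were above cluster 3. The shares over all 865 genes were 57.1% above cluster 1 and 48.8% above cluster 3. The glucose transporter gene Slc2a1 averaged 1.76 (1.60–1.92) in cluster 2, 0.939 (0.799–1.10) in cluster 1 and 0.553 (0.239–1.09) in cluster 3. The glycolytic enzyme gene Gapdh averaged 5.69 in cluster 2, 3.24 in cluster 1 and 3.32 in cluster 3. Transketolase, Tkt, an enzyme of the pentose phosphate pathway, averaged 1.04 (0.921–1.17) in cluster 2, 0.429 (0.336–0.539) in cluster 1 and 0.276 (0.0753–0.707) in cluster 3, the last on 4 UMIs.

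Atp1b3, a beta subunit of the sodium-potassium pump, was higher in cluster 2 than in both other clusters. It averaged 2.36 (2.18–2.56) in cluster 2, 0.851 (0.718–1.0) in cluster 1 and 0.691 (0.331–1.27) in cluster 3. Cluster 2 stood 2.78-fold above cluster 1 and 3.42-fold above cluster 3, where the gene rested on 10 UMIs. Atp1b3 reached the listing value of 1 in cluster 2 alone, so that it was highest there was fixed by the listing.

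Genes linked to cell division were listed in small number. Of 35 genes, 6 were listed; Mki67, Top2a, Pcna and the Mcm genes were not. All 6 were above cluster 1, with a median log2 ratio of 0.90, and none was above cluster 3, with a median of -0.27. H2afz, a replacement histone that is high in dividing cells, averaged 1.9 (1.74–2.07) in cluster 2, 0.851 (0.718–1.0) in cluster 1 and 2.0 (1.34–2.88) in cluster 3. The high mobility group gene Hmgb2 averaged 0.653 (0.560–0.757) in cluster 2, 0.388 (0.30–0.493) in cluster 1 and 1.04 (0.580–1.71) in cluster 3. Only in cluster 3 did Hmgb2 reach the listing value of 1, so that it was highest there was fixed by the listing. For these genes clusters 2 and 3 did not differ beyond counting error. The genes H3f3a and H3f3b, which encode the replacement histone H3.3, showed smaller differences. H3f3a averaged 4.08 in cluster 2, 3.57 in cluster 1 and 3.52 in cluster 3, and H3f3b averaged 3.84 in cluster 2, 2.99 in cluster 1 and 5.04 in cluster 3.

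Of 9 listed genes of antigen presentation and interferon response, 8 were above cluster 1 (7 after division by the median ratio) and 5 above cluster 3. The shares over all 865 genes were 57.1% and 48.8%, and the count against cluster 3 was near its share. Beyond counting error, 3 of the 9 were above cluster 3. Ifitm3, an interferon-induced membrane protein that blocks viral entry, had the highest ratio to cluster 1 of all 865 genes, 4.47. It averaged 1.08 (0.956–1.21) in cluster 2, 0.241 (0.173–0.327) in cluster 1 and 0.760 (0.379–1.36) in cluster 3, on 290, 41 and 11 UMIs. Cd74, the invariant chain of MHC class II, averaged 1.48 (1.34–1.63) in cluster 2, 0.622 (0.510–0.753) in cluster 1 and 0.622 (0.284–1.18) in cluster 3. The class II gene H2-Ab1 averaged 1.03 (0.914–1.16) in cluster 2, 0.605 (0.494–0.733) in cluster 1 and 0.553 (0.239–1.09) in cluster 3. Cd74 and H2-Ab1 were the only 2 listed of 19 markers of macrophages and dendritic cells, at 0.0500% of UMIs in cluster 2, 0.0244% in cluster 1 and 0.0234% in cluster 3. The other 17 markers, Lyz2, C1qa and Cd68 among them, were not listed, and the part of such cells in these values was not tested. Ifitm3, Cd74 and H2-Ab1 averaged at least 1 in cluster 2 and under 1 in clusters 1 and 3. Genes of this kind were listed through cluster 2, so no other cluster could exceed it in them. The counts above include these genes, and the macrophage and dendritic share rests on Cd74 and H2-Ab1 alone. Its higher value in cluster 2 therefore follows from which genes were listed.

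**Figure D4:**
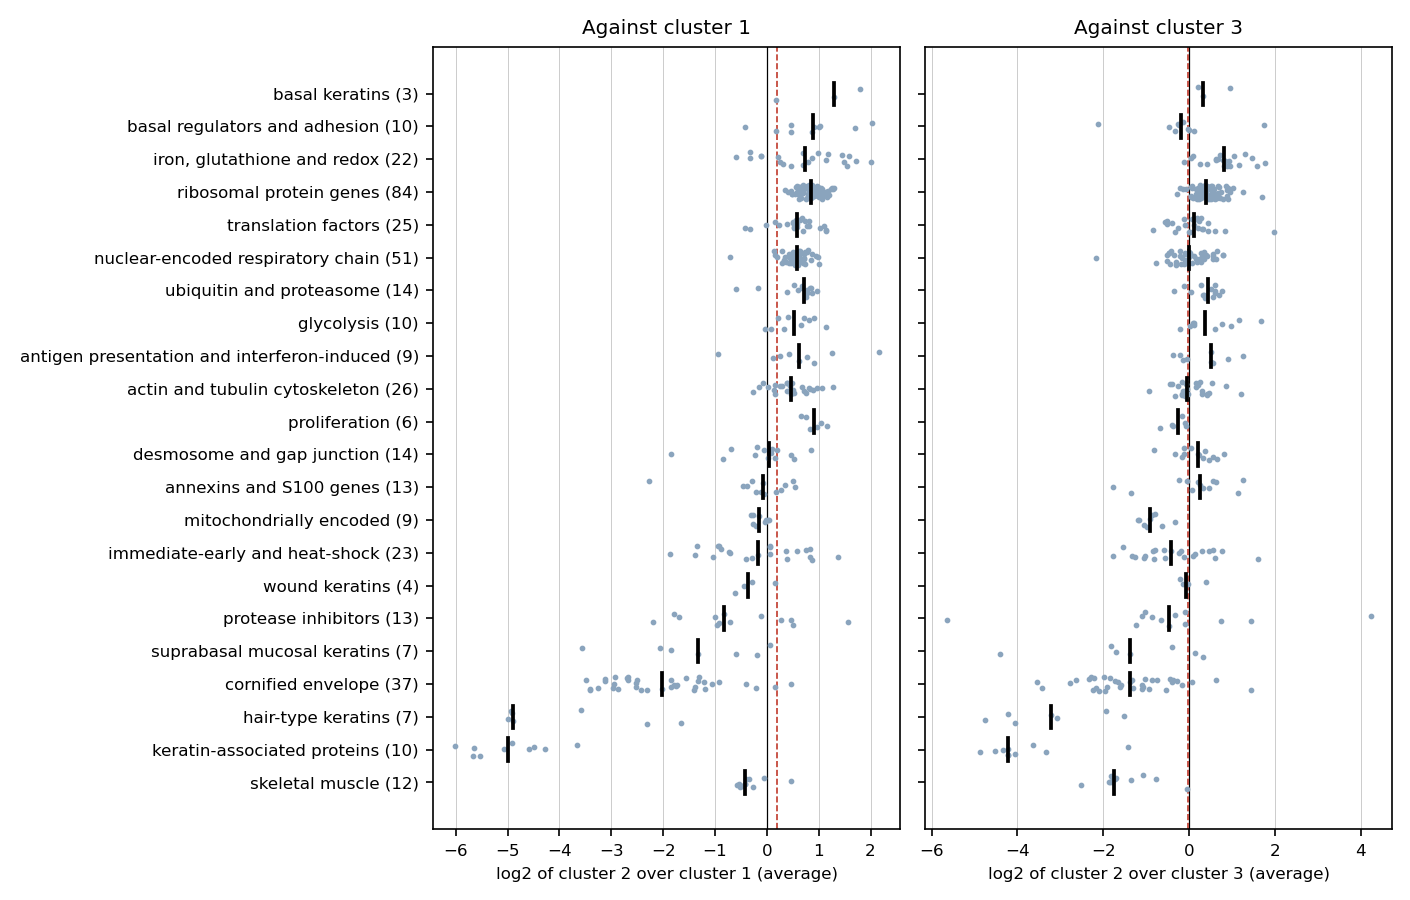
Log2 ratios of WT cluster 2 to cluster 1 (left) and to cluster 3 (right) for the listed members of each gene list; points are genes, black bars are list medians, the dashed red line is the median of all 865 genes (0.19 and -0.02), and numbers in brackets are listed members. Most redox and ribosomal protein genes lie right of 0 in both panels, the proliferation list only in the left panel, and cornified, hair-type keratin and keratin-associated genes lie left of 0 in both.

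Genes of the cornified surface were lower in cluster 2 than in both other clusters. Of 37 listed cornified envelope genes, 32 were at least 2-fold lower than in cluster 1 and 25 than in cluster 3, with median log2 ratios of -2.02 and -1.38. They took 3.76% of UMIs in cluster 2, 10.7% in cluster 1 and 7.39% in cluster 3. Of the 37 genes, 27 averaged at least 1 in cluster 2. Their median log2 ratios were -1.76 to cluster 1 and -1.09 to cluster 3. The others were listed through another cluster, so a lower level in cluster 2 was fixed by the listing. Lor (chr3:92080271-92083142, minus strand), the gene of loricrin, averaged 18.2 (17.7–18.8) in cluster 2, 74.0 (72.7–75.3) in cluster 1 and 55.4 (51.6–59.4) in cluster 3. Even so it ranked 22 in cluster 2. Krtdap, a secreted peptide of differentiating keratinocytes, was an exception in this list, at 50.3 (49.4–51.1) in cluster 2, 45.3 (44.3–46.3) in cluster 1 and 32.7 (29.9–35.8) in cluster 3; its log2 ratio of 0.15 to cluster 1 was below the median of all genes.

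Hair-type keratins and keratin-associated proteins, which build the hard tips of filiform papillae, were at their lowest in cluster 2. All 7 listed hair-type keratins and all 10 listed keratin-associated protein genes were at least 2-fold lower than in both other clusters. Of the 7 hair-type keratins, 2 averaged at least 1 in cluster 2. Their median log2 ratio to cluster 1 was -1.98, against -4.89 for all 7. The others were listed through another cluster, so a lower level in cluster 2 was fixed by the listing. The hair-type keratins took 0.0848% of UMIs in cluster 2, 0.530% in cluster 1 and 0.393% in cluster 3, and the keratin-associated proteins 0.0218%, 0.494% and 0.344% in clusters 2, 1 and 3. The lowest ratio to cluster 1 was that of Krtap4-1, with 5 UMIs in cluster 2 and 205 in cluster 1, a log2 ratio of -6.02 (-7.66 to -4.77). None of the 10 keratin-associated genes reached an average of 1 in cluster 2, so their lower level there was fixed by the listing.

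Suprabasal keratins split into 2 kinds. Krt13 and Krt4, the most abundant pair, differed by less than 2-fold between clusters, with log2 ratios to cluster 1 of -0.59 and -0.19. Krt76, a keratin of masticatory oral epithelium, averaged 0.549 (0.464–0.645) in cluster 2, 6.48 (6.11–6.88) in cluster 1 and 11.7 (9.98–13.6) in cluster 3. With an average under 1 in cluster 2, its lower level there was fixed by the listing. Krt78, Krt80 and Krt10 were also more than 2-fold lower in cluster 2 than in either other cluster. Krt10 averaged under 1 in cluster 2 as well, so its lower level was likewise fixed by the listing. Krt23 was the only listed suprabasal keratin above cluster 1, at a log2 ratio of 0.06, which was not beyond counting error. Among wound keratins, Krt6b averaged 54.6 in cluster 2, 83.2 in cluster 1 and 55.3 in cluster 3, and Krt17 averaged 29.5 in cluster 2, 26.4 in cluster 1 and 22.6 in cluster 3. Krt17 was the only 1 of the 4 wound keratins above cluster 1, and after division by the median ratio none was.

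Secreted protease inhibitors differed among themselves. Slpi, an inhibitor of neutrophil elastase, averaged 17.2 (16.7–17.7) in cluster 2, 55.6 (54.5–56.7) in cluster 1 and 35 (32.0–38.2) in cluster 3. Wfdc18, which holds the same type of WAP domain, went the other way, with 351 UMIs in cluster 2, 75 in cluster 1 and 1 in cluster 3. It averaged 1.30 (1.17–1.45) in cluster 2, 0.440 (0.346–0.552) in cluster 1 and 0.0691 (0.00175–0.385) in cluster 3. Its log2 ratio to cluster 3 of 4.24 (1.75–9.55) was the highest of all genes and rested on that 1 UMI. Wfdc18 reached the listing value of 1 in cluster 2 alone, so that it was highest there was fixed by the listing.

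**Figure D5:**
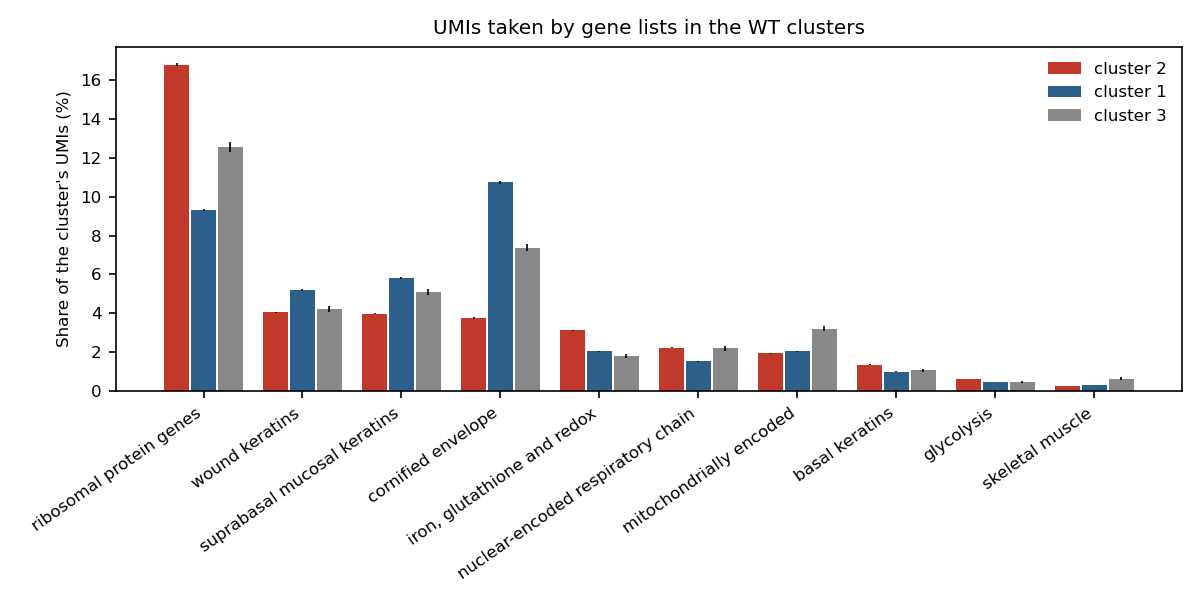
Share of all UMIs of a cluster (%, axis from 0) taken by 10 gene lists in WT cluster 2 (red), cluster 1 (blue) and cluster 3 (grey); lines on the bars are exact 95% intervals for counting error. Ribosomal protein genes take 16.8% in cluster 2, 9.31% in cluster 1 and 12.6% in cluster 3, and cornified envelope genes take 3.76%, 10.7% and 7.39% in the same order.

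A few genes passed the 2-fold line against cluster 3 but not against cluster 1. There were 23 genes at least 2-fold higher than in cluster 3 and within 2-fold of cluster 1. Anxa1, a phospholipid-binding protein that limits inflammation, averaged 20.3 (19.7–20.8) in cluster 2, 23.5 (22.7–24.2) in cluster 1 and 8.43 (7.0–10.1) in cluster 3. The G protein gamma subunit Gng5 averaged 3.52 (3.29–3.75) in cluster 2, 2.46 (2.23–2.71) in cluster 1 and 0.829 (0.428–1.45) in cluster 3. The inducible heat-shock gene Hspa1b averaged 2.09 (1.92–2.27) in cluster 2, 1.17 (1.02–1.35) in cluster 1 and 0.691 (0.331–1.27) in cluster 3. Relative to cluster 1, Anxa1 was still lower in cluster 2, and Gng5 and Hspa1b higher, with no overlap of the intervals. Aldh1a3, which makes retinoic acid, was 1 of 2 genes that went in opposite directions by 2-fold or more, with 163 UMIs in cluster 2, 316 in cluster 1 and 2 in cluster 3; the other, AA467197, was named for this after its values were seen.

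Skeletal muscle transcripts, which come from the muscle below the epithelium, set cluster 3 apart from cluster 2. Of 12 listed muscle genes, 1 was above cluster 1, none was above cluster 3, and 10 were at least 2-fold lower than in cluster 3. Of the 12, 5 averaged at least 1 in cluster 2, with a median log2 ratio to cluster 3 of -1.72. The others were listed through another cluster, so a lower level in cluster 2 was fixed by the listing. The whole list took 0.241% of UMIs in cluster 2, 0.294% in cluster 1 and 0.638% in cluster 3. Acta1, the actin of skeletal muscle fibres, averaged 1.15 (1.03–1.29) in cluster 2, 1.71 (1.52–1.92) in cluster 1 and 4.01 (3.04–5.18) in cluster 3. Ckm, muscle creatine kinase, averaged 1.11 (0.988–1.24) in cluster 2, 1.54 (1.36–1.74) in cluster 1 and 3.94 (2.98–5.10) in cluster 3. Muscle genes thus varied beside every comparison with cluster 3, mitochondrially encoded genes included, and their part in those ratios was not tested. The genes furthest below cluster 3 were Lyg1, with 27 UMIs in cluster 2, 385 in cluster 1 and 80 in cluster 3, and Spink12, with 20, 58 and 54 in clusters 2, 1 and 3.

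Markers of other cell types of the tongue were mostly not listed. None was listed of the 17 fibroblast and matrix, 11 endothelial, 7 smooth muscle, 18 lymphocyte, 6 mast cell, 5 erythroid, 6 nerve, 5 melanocyte, 6 adipocyte, 17 salivary gland and 9 taste bud markers. Of 12 neutrophil markers only S100a8 and S100a9 were listed, which keratinocytes under stress also make. Of 12 markers of simple or ductal epithelium, Cldn4 and Ehf were listed, and both were lower in cluster 2 than in cluster 1. Neither averaged 1 in cluster 2, so that lower level was fixed by the listing. Both were above cluster 3, but not beyond counting error. The label markers and gene lists were chosen with earlier results of these data known, so they are no independent support for the name of the region. In these terms cluster 2 was a keratinocyte region in which most listed basal transcripts were higher than in cluster 1. Relative to cluster 3, Krt15, Krt14 and, only just, Krt5 were higher beyond counting error, while Trp63, Dst, Col17a1 and Itga6 did not differ beyond it.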

How the data were processed

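Spatial transcriptomes of 2 tongue sections were used, 1 WT and 1 H3K36M, grouped by their titles. The submitters' processing notes name Space Ranger and the mouse build GRCm38 (mm10), and the sources used here give neither a version nor how spots were clustered. Per the file headers, each deposited cluster table lists genes with a signal (the mean level in a cluster), the log2 fold change of that cluster and its p-value. The deposited p-values rest on spots within 1 section and support no statement here. The deposited metrics give counts of spots and reads and quality measures as a fraction.

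What an average counts was inferred from the numbers themselves. In each cluster every average was a whole multiple of 1 step (100% of values within 0.01 of a whole number), as UMI sums over summed size factors would be. The deposited log2 fold changes were matched by the cluster over the other clustered spots with 1 UMI and 1 size factor added on each side, which fixed the UMIs. The depth to which averages refer came out as 5027 UMIs, the lowest value in steps of 0.5 at which all cluster totals became whole. The deposited median is 4899, so the clustered spots may not be the set behind the metrics.

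Ratios are of averages, with exact conditional intervals; levels and shares have exact Poisson intervals, at 95%, for counting error only. No test was run: there was 1 section, and spots had been clustered on the counts compared. A list is described by its counts and median beside those of all genes. Members and lists were chosen with earlier results of these data known. Genes were named by rule: the markers, the 25 most abundant, those with the highest and lowest ratios among genes with at least 30 UMIs in both clusters together, all basal members and up to 8 members of each list. The rule gave 196 genes. Positions came from GENCODE M21, in which all 865 identifiers were found, 858 with the same symbol. The recovery was tested on simulated data. Alternatives were other fold thresholds, filters, scalings and denominators. Calculations used Python 3.11.15 with numpy 2.4.6, pandas 2.3.3, scipy 1.17.1 and matplotlib 3.10.9. Some genes that the rule names are not reported here.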

Additional observations from a re-analysis of the deposited data

How the results depend on the processing

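Of 25 counts and percentages recomputed under other settings, 17 kept within 1.5 times or their counting error and 8 moved. Genes at least 2-fold higher than in cluster 1 numbered 73 as reported, 266 at 1.5-fold, 33 after division by the median ratio and 43 with totals taken without cornified, hair-type keratin, keratin-associated and alarmin genes. Genes lower by 2-fold numbered 183 as reported, 207 after division by the median ratio and 202 with those totals. The genes left out of those totals held 6.25% of UMIs in cluster 2, 14.9% in cluster 1 and 9.79% in cluster 3. Genes higher than in cluster 3 numbered 43 as reported and 142 at 1.5-fold. With the listed genes as the denominator in place of all UMIs, shares in cluster 2 were 2.04% for basal keratins, 25.6% for ribosomal protein genes, 4.76% for redox genes and 5.72% for cornified envelope genes, which follows from the smaller denominator. Of 136 recomputed list medians, 108 stayed within their counting error and 28 moved. Of the 136, 12 lay on the other side of 0, 2 of them over cluster 1 and 10 over cluster 3. Over cluster 1, the median of desmosome genes was 0.04 as reported and -0.14 after division by the median ratio, and that of immediate-early and heat-shock genes was -0.18 as reported and 0.38 among genes averaging at least 1 in cluster 2. Over cluster 3, 6 of the 10 came from the deposited fold change, which sets cluster 2 against clusters 1 and 3 together: -0.18 became 0.76 for basal regulators and -0.27 became 0.76 for proliferation genes. No paired analysis was possible because there was 1 section per genotype and no replicate. Cluster 3 limits every ratio to it: its 72775 UMIs leave many genes with fewer than 10 UMIs.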

Other observations

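Genes of the keratinocyte scaffold differed among themselves. Of 26 listed actin and tubulin genes, 23 were above cluster 1 (19 after division by the median ratio) and 12 above cluster 3, with median log2 ratios of 0.46 and -0.04. The actin-sequestering peptide gene Tmsb4x averaged 11.7 (11.3–12.1) in cluster 2, 5.6 (5.25–5.97) in cluster 1 and 10.1 (8.52–11.9) in cluster 3. Of 14 listed desmosome and gap junction genes, 8 were above cluster 1, or 4 after division by the median ratio, and 9 above cluster 3. Over all 865 genes, 57.1% were above cluster 1 and 48.8% above cluster 3. The desmosome count of 8 and the actin and tubulin count of 12 were near those shares. Perp, a desmosomal membrane protein, averaged 16.5 in cluster 2, 18.8 in cluster 1 and 17.9 in cluster 3. The connexin gene Gja1 averaged 5.68 (5.40–5.97) in cluster 2, 4.13 (3.83–4.45) in cluster 1 and 3.59 (2.68–4.71) in cluster 3, while the connexin gene Gjb2 averaged 6.54 in cluster 2, 11.7 in cluster 1 and 7.11 in cluster 3. The 2 connexin genes thus stood on opposite sides of cluster 1. Of 13 listed annexin and S100 genes, 5 were above cluster 1 and 9 above cluster 3, and S100a4 averaged 0.486 in cluster 2, 0.511 in cluster 1 and 1.66 in cluster 3. S100a4 reached the listing value of 1 in cluster 3 alone, so that it was highest there was fixed by the listing.

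Among 14 listed ubiquitin and proteasome genes, 12 were above cluster 1 and 12 above cluster 3, with median log2 ratios of 0.72 and 0.44, and none differed by 2-fold from either. Only 1 of the 14 was above cluster 3 beyond counting error. Over all 865 genes, 57.1% were above cluster 1 and 48.8% above cluster 3. Of 23 listed immediate-early and heat-shock genes, 11 were above cluster 1 (8 after division by the median ratio) and 8 above cluster 3. Its members differed in direction. The chaperone gene Hspe1 averaged 1.76 (1.60–1.92) in cluster 2, 0.675 (0.557–0.810) in cluster 1 and 1.04 (0.580–1.71) in cluster 3. The endoplasmic reticulum chaperone gene Hspa5 averaged 2.48 in cluster 2, 4.56 in cluster 1 and 2.90 in cluster 3. The transcription factor gene Junb, named after its values were seen, averaged 1.13 (1.01–1.27) in cluster 2, 2.33 (2.1–2.57) in cluster 1 and 2.69 (1.92–3.68) in cluster 3. Of 13 listed protease inhibitors, 4 were above cluster 1 and 3 above cluster 3. All 5 listed replacement histone genes were above cluster 1 and 2 were above cluster 3.

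The H3K36M section had 4 clusters and 298 listed genes, of which 284 were also in the WT table. Of the 73 genes at least 2-fold higher in WT cluster 2 than in WT cluster 1, 32 were listed there. Of these 32, 20 had their highest rate in H3K36M cluster 2, 8 in cluster 4, 4 in cluster 1 and none in cluster 3. Of all 284 shared genes, 110 had their highest rate in H3K36M cluster 2, 56 in cluster 4, 44 in cluster 1 and 74 in cluster 3, so cluster 2 held 62.5% of the 32 and 38.7% of the 284. The sections were scaled separately and their listing values stood at different depths, so rates are set side by side and no fold was formed. Krt15 had 8.79 UMIs per 10000 (8.30–9.31) in WT cluster 2, and 29.5 (22.0–38.8), 16.4 (15–17.9), 15.9 (14.2–17.8) and 12.6 (9.79–16) in H3K36M clusters 1 to 4. Krt5 had 32.7 (31.8–33.7) in WT cluster 2, and 23.7, 25.9, 19.9 and 24.5 in H3K36M clusters 1 to 4. Ftl1 had 10.8 (10.2–11.4) in WT cluster 2, and 7.52, 6.59, 2.99 and 11.3 in H3K36M clusters 1 to 4. Trp63 and Mir205hg were not listed for the H3K36M section.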
